A study of Mus musculus with 28 samples.

Results

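The mRNAs bound to tagged ribosomes of the mouse eye around birth were compared with those bound from the end of the first postnatal week to adulthood. All 8 libraries came from retinal RiboTag mice, that is, from crosses of a RiboTag female, whose Rpl22 gene switches to a form with a hemagglutinin (HA) tag after Cre recombination, with a male carrying Pax6-alpha-Cre. This Cre acts for a time in progenitors of the peripheral retina and leaves the tag in their descendants, so that only cells of the peripheral neural retina were meant to be tagged, on 1 of 2 Rpl22 alleles. Mice were of the C57BL/6 strain, whole eyes served as the source of retinal cell bodies, and 3 eyes were pooled for each library. The perinatal side held 2 libraries of late embryos (E17.5) and 2 of newborns (P0.5). The later side held 2 libraries of pups at postnatal day 7.5 (P7.5) and 2 of adults, whose age the labels do not give. These 8 were taken from the 28 libraries of the series by their labels alone. Each lists 23995 genes, and the 3095 genes with at least 1 FPKM (mapped fragments of a gene divided by transcript length in kilobases and by library size in units of 1e+06 fragments) in 3 or more of the 8 libraries were compared. No eye without Cre was analysed here, so nonspecific pull-down from the eye itself is not measured.

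The mouse retina forms its cell types in an overlapping order from dividing progenitors. Ganglion cells, horizontal cells, cones and part of the amacrine cells arise mostly before birth, whereas most rods, bipolar cells and Mueller glia become postmitotic around and after birth, and rods, by far the most numerous cells of the mature mouse retina, build their light-sensing outer segments in the postnatal weeks. Because RiboTag purifies mRNA with ribosomes attached, a level here depends both on the amount of an mRNA and on how much of it carries ribosomes. In such bulk samples, fewer cells of a type and less RNA per cell cannot be told apart.

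The 8 libraries did not behave alike within a period. Depth, estimated from the smallest steps between FPKM values, was 6610000 to 10100000 fragments, at which 3 fragments on a transcript of 2 kb correspond to 0.148 to 0.227 FPKM. PCR-amplified fragments are not independent molecules, so these floors cover counting error only. Adult replicate 1 listed 2082 genes above 0 and P7.5 replicate 1 listed 4311, whereas the other 6 listed 6262 to 8769, and of the 3095 genes compared, 53.0% stood at 0 in adult replicate 1 and 34.2% in P7.5 replicate 1. On log2(FPKM + 1), P7.5 replicate 1 correlated better with the perinatal libraries (mean Pearson r across genes 0.731) than with the other later ones (0.649), while P7.5 replicate 2 and adult replicate 2 had an r of 0.939. Results are therefore also given without P7.5 replicate 1 and adult replicate 1. Some zeros were not low levels. Gnb1, a G protein subunit used by most cells, was listed at 0 in 5 of the 8 libraries and at 16210 to 45000 FPKM in the other 3, yet it took 30.5% of the reads on genes in a separate adult retina library, and 4 of the 16 collicular libraries of the series carry a too-many-reads mark in place of its value. Actb (beta-actin) stood at 0 in 3 libraries, and 8 of the genes compared were at 0 in a library and at 1000 FPKM or more in another, so an exact 0 is reported here only as listed. Rpl22 itself, with tagged and untagged transcripts together, was at 0.42, 6.74, 0.496 and 0.461 FPKM in the perinatal libraries and at 0.0645, 1.12, 0 and 1.4 FPKM in the later ones (in the order E17.5, P0.5, P7.5, adult, replicate 1 before 2, which holds for all values below).

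Across all genes the balance between the periods depended on the libraries and the scale. The difference of mean log2(FPKM + 1), perinatal minus later, had a median of 0.042 over the 3095 genes, and 52.5% of them were higher in perinatal retina. This median was -0.69 without P7.5 replicate 1 and adult replicate 1, -0.31 without E17.5 replicate 2 and 0.41 with a pseudocount of 0.1. In a limma fit with a mean-variance trend and Benjamini-Hochberg adjustment over all genes compared, 35 genes were higher in perinatal retina (1.13%) and 22 were higher in later retina (0.711%) at an adjusted p under 0.05. At an unadjusted p under 0.05 the numbers were 204 and 177. All 4 perinatal values lay above all 4 later values for 169 genes (5.46%), and the opposite held for 62 genes (2%). Below, such genes are called separated. For a single gene the exact two-sided permutation test of 4 against 4 libraries cannot give a p below 0.0286. Of the genes called by limma, 31 of 35 and 12 of 22 were also separated.

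**Figure D1:**
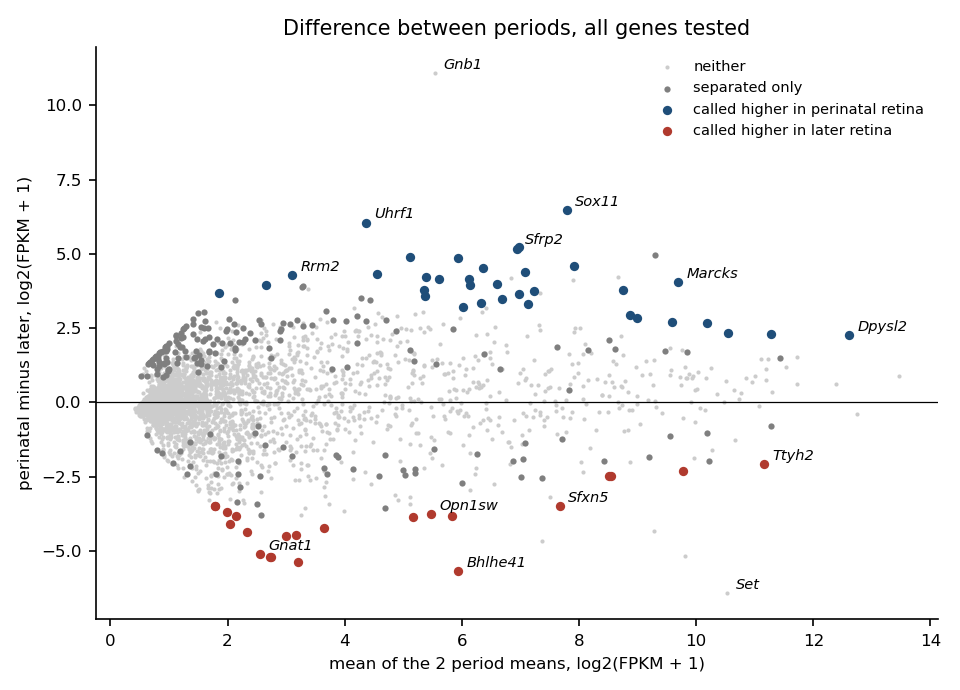
Difference of mean log2(FPKM + 1), perinatal minus later, against the mean of the 2 period means for the 3095 genes compared. Blue and red points are the 35 and 22 genes called by limma, dark grey points are genes separated but not called, and light grey points are the rest. Gnb1 and Set carry values listed at 0 in some libraries.

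The number of calls depended on single libraries, most of all in the later direction. Without P7.5 replicate 1, 114 genes were higher in later retina and 44 in perinatal retina, and 19 of the 22 and 22 of the 35 original genes were among them. Without both P7.5 replicate 1 and adult replicate 1, the numbers were 152 and 40. The later calls numbered 7 without P0.5 replicate 1, 8 without P0.5 replicate 2, 8 without E17.5 replicate 1, 7 without P7.5 replicate 2 and 12 without adult replicate 1. The perinatal calls numbered 13 without P0.5 replicate 1 and 21 without adult replicate 1. Scaling also shifted the split, since 61.4% of all calls were higher in perinatal retina as reported, 78.9% after median-ratio scaling and 73.5% after quantile normalization. Of the called genes described below, 6 kept their call under all alternatives but 1, namely Uhrf1, Sfrp2, Cdv3, Pmf1 and Marcks in the perinatal direction and Bhlhe41 in the later one. The exception was the fit with no filter on level, which called no gene at all in either direction by limma, with 383 and 153 genes at an unadjusted p under 0.05.

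**Figure D2:**
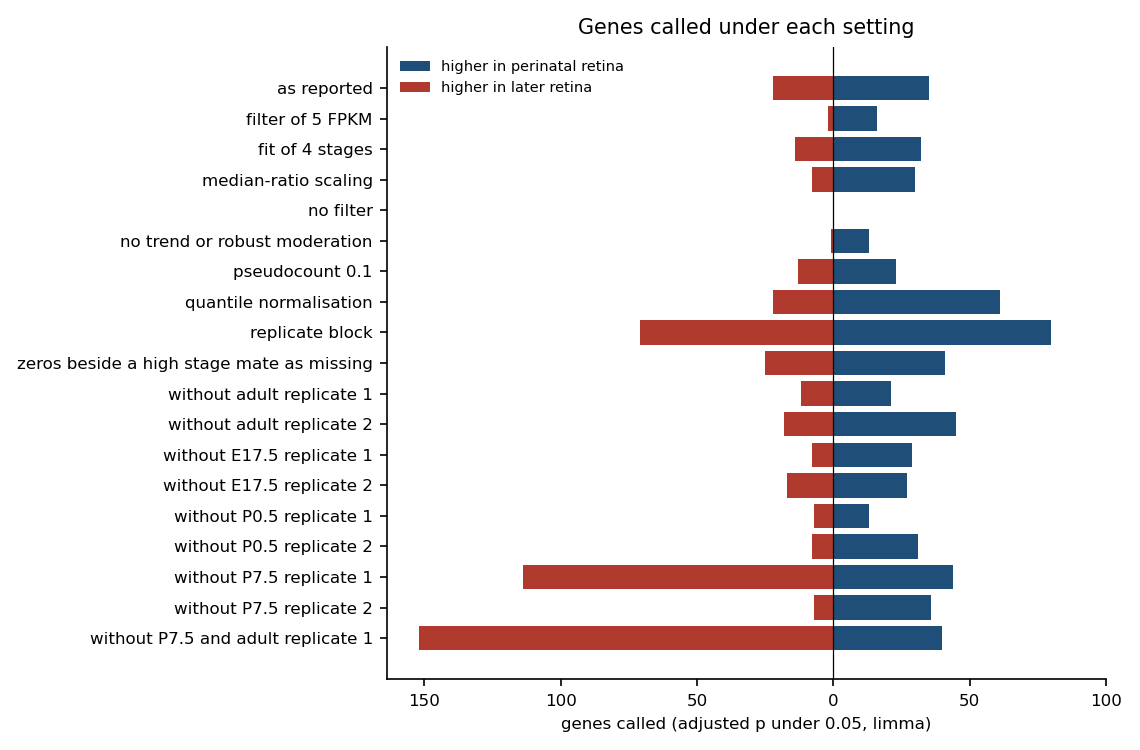
Number of genes called by limma under the reported fit and each alternative, with genes higher in perinatal retina to the right and genes higher in later retina to the left. The later side reaches 114 without P7.5 replicate 1 and 152 when adult replicate 1 is left out as well.

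Genes of the rod phototransduction machinery made up 11 of the 22 later-high calls. In rods, light activates the G protein transducin (alpha subunit Gnat1), which in turn relieves the inhibitory gamma subunit (Pde6g) of a phosphodiesterase. Arrestin (Sag) helps to end the response, and recoverin (Rcvrn) modulates it. Guanylate cyclase activators (Guca1a and Guca1b) restore cyclic GMP, and Prph2 and Rom1 shape the discs of the outer segment. Of 39 listed rod genes 38 were in the files and 16 passed the level filter. Of these 16, 11 were called higher in later retina (beside 0.711% of all genes) and none in the other direction, 5 were separated (Gnat1, Sag, Prph2 and Pdc among them), and the median difference was -4.17 among those tested and -1.16 over all 38. Several of the 16 passed the filter only through the later libraries in which they were high, so the counts are a description. Leaving out P7.5 replicate 1 and adult replicate 1 moved the first median to -5.16. The summed level of the 38 genes was 1.77 to 12.5 FPKM in the 4 perinatal libraries, 11.0 FPKM in P7.5 replicate 1, and 1009 to 2077 FPKM in the other 3 later libraries. P7.5 replicate 1 thus stood with the perinatal libraries for this group.

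Gnat1 was listed at 0 in all 4 perinatal libraries and was at 0.126, 93.6, 257 and 50.2 FPKM in later retina, with an adjusted p of 0.00179 by limma. The groups did not overlap, but P7.5 replicate 1 lay next to the perinatal values. Sag was at 0, 0, 0.182 and 0.294 FPKM and then at 0.413, 60.3, 59 and 51.2 FPKM, so that 3 of the 4 later libraries held it at nearly the same level (difference -4.36, SE 1.13, adjusted p 0.0107 by limma). Pde6g was called with 0, 0, 1.16 and 0.865 FPKM in perinatal and 0.35, 171, 308 and 173 FPKM in later retina (difference -5.39, SE 1.20), and its groups overlapped through P7.5 replicate 1. Guca1a (difference -5.20), Tulp1 (-4.49), Rom1 (-4.46), Unc119 (-4.25) and Guca1b (-4.10) were called with the same overlap. Phosducin (Pdc), which binds transducin, was at 0.491, 0, 0 and 0 FPKM and at 4.8, 28.9, 5.3 and 38.1 FPKM, a separated gene whose values in both replicates 1 were lower than in both replicates 2. Rcvrn stayed below the level filter in the later replicates 1 (0.143 and 0.22 FPKM) while reaching 10.3 and 35.6 FPKM in the replicates 2, and was not tested. The calls of Gnat1, Pde6g and Guca1a held in 14, 14 and 13 of 18 alternatives, that of Sag in 10, that of Pdc in 8 and that of Prph2 in 5.

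Promoter sequence, which the level comparison did not use, was examined next. Crx, the photoreceptor homeodomain factor, binds a short motif whose core is TAATCC, and these letters were searched on both strands of the 250 bases upstream of each start in the RefSeq promoter table of GRCm38.p6. Of the 39 rod genes 27 had an entry, and 12 of them (44.4%) held the motif, against 6.91% of the 2416 compared genes with an entry and 7.21% of all 27025 genes with one. Among the 22 genes called higher in later retina, 18 had an entry and 3 held it (16.7%), all of them rod genes, Sag, Guca1a and Unc119, and their windows are shown because these genes carry both the motif and the call. Capitals mark the motif, which reads GGATTA in each since the match is on the other strand, 87, 57 and 118 bases before the start.
Sag, chr1:87803430-87803679, plus strand, free of annotated exons: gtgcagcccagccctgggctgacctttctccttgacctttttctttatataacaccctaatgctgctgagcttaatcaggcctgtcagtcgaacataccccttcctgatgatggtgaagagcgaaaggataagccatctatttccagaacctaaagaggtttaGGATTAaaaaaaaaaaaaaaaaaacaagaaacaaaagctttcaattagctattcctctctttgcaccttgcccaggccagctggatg
Guca1a, chr17:47400607-47400856, minus strand, free of annotated exons: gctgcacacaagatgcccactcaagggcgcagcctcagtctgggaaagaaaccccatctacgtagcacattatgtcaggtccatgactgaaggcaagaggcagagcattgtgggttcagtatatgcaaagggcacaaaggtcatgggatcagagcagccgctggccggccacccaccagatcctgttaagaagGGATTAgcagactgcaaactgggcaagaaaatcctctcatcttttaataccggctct
Unc119, chr11:78345334-78345583, plus strand, upstream of the second of 3 RefSeq starts and free of annotated exons: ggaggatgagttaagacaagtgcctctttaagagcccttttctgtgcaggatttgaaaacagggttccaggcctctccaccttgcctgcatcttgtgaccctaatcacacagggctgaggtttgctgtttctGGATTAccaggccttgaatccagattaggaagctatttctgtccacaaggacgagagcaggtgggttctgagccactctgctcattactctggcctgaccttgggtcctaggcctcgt
None of the 27 rod genes with an entry held an E2F motif, described further on. A match is a description of the letters only.

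**Figure D3:**
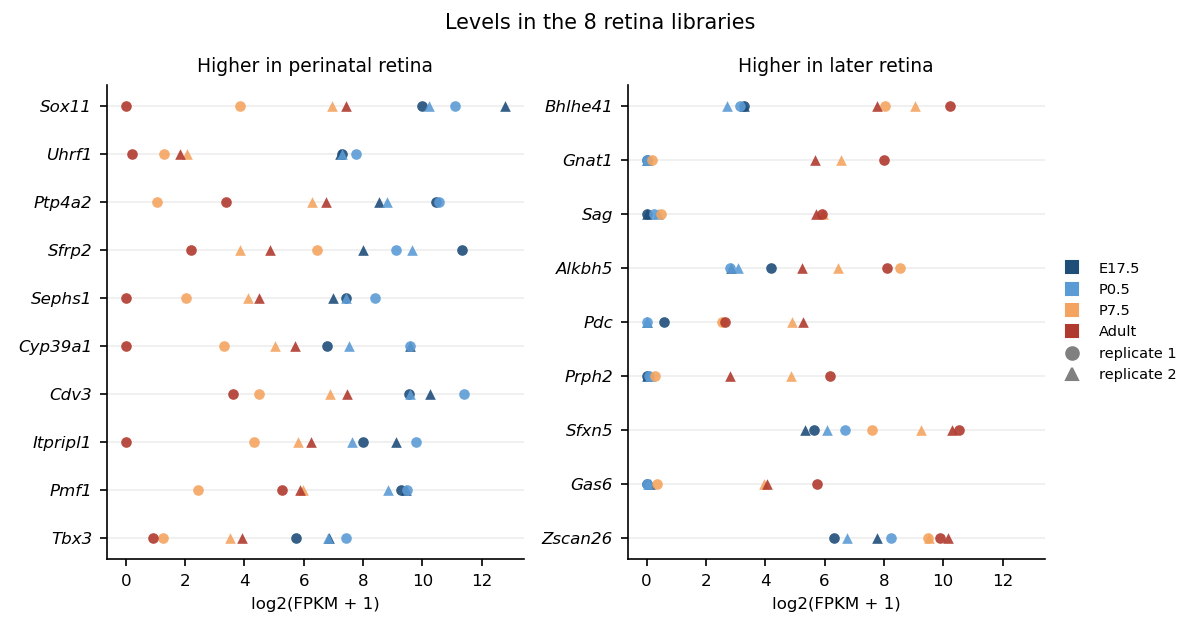
Levels, as log2(FPKM + 1), in each of the 8 libraries for genes with the largest differences among those called and separated, 10 higher in perinatal and 9 higher in later retina. Colors mark the stage and shapes the replicate. P7.5 replicate 1 lies close to the perinatal values for Gnat1, Sag, Prph2 and Gas6 but not for Bhlhe41, and adult replicate 1 is at 0 for several perinatal-high genes.

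Other photoreceptor genes were less uniform. Of 14 cone genes 6 were tested and 1 was called, beside 0.711% of all genes. This was the short-wavelength opsin Opn1sw, at 6.23, 2.27, 18.1 and 45.3 FPKM in perinatal and 2526, 84.1, 103 and 30.5 FPKM in later retina (difference -3.76, SE 1.02, adjusted p 0.0176 by limma). P7.5 replicate 1, the library in which rod genes were near their perinatal level, held by far the most of this opsin. Without it the difference was -2.44 and the call was lost, as it also was without either E17.5 library (-3.52 and -3.13) or P0.5 replicate 1 (-3.98). An exon of Opn1sw overlaps one of Calu in the annotation, so reads of the 2 genes cannot be fully told apart. Of 11 photoreceptor transcription factors 5 were tested and none was called. Nrl, which directs the rod fate, was separated, at 0, 0.1, 0 and 0.0414 FPKM before and 0.754, 9.35, 1.12 and 7.49 FPKM later, with an adjusted p of 0.164 by limma. Crx was at 5.29 FPKM in E17.5 replicate 2 and at or below 1.19 FPKM in the other perinatal libraries, and at 12.6 and 20.3 FPKM in the later replicates 2 but at 0.0945 and 0.035 FPKM in the later replicates 1. For Crx the replicates of a stage thus differed by more than the periods did.

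The later-high calls outside phototransduction were led by Bhlhe41, a basic helix-loop-helix repressor of the circadian clock. It was at 8.7, 8.63, 7.82 and 5.61 FPKM in perinatal retina, nearly constant over 4 libraries, and at 261, 530.2, 1209 and 217 FPKM in later retina. All 4 later values, P7.5 replicate 1 included, lay far above the perinatal ones, and the difference of -5.67 (SE 0.96) had an adjusted p of 3.62e-06 by limma. Alkbh5, an RNA demethylase, was at 6.03 to 17.3 FPKM before and 36.5 to 370.1 FPKM later (difference -3.85, SE 1.04). Sfxn5, a mitochondrial carrier of the sideroflexin family, was at 39.4 to 102 FPKM before and 192 to 1469 FPKM later (difference -3.48, SE 0.81), and its call held in 16 of 18 alternatives, against 8 for Alkbh5. Gas6, a ligand of the receptor kinases that serve phagocytosis of shed outer segments by the pigment epithelium, was at most at 0.091 FPKM in perinatal retina and at 0.264, 14.4, 52.7 and 15.6 FPKM in later retina (difference -3.48, SE 1.03). Its call held in 6 of 18 alternatives and was lost on leaving out any single library other than P7.5 replicate 1. That of Alkbh5 was lost without adult replicate 1, P7.5 replicate 2 or either P0.5 library. The 3 later-high genes with the highest mean over both periods were Ttyh2, Dhrs3, a retinaldehyde reductase, and Glo1, a detoxifying enzyme of methylglyoxal. Ttyh2 was at 436 to 2685 FPKM before and at 15670, 6268, 870.3 and 5529 FPKM later (difference -2.07, SE 0.61) and was not separated because of adult replicate 1. Dhrs3 was at 267 to 634 FPKM before and 916 to 2930 FPKM later (difference -2.32, SE 0.66), and Glo1 was at 91.8 to 261 FPKM and 496 to 2606 FPKM (difference -2.48, SE 0.74). The calls of these 3 and of Zscan26, a zinc finger protein (difference -2.50), held in 4 to 8 of 18 alternatives. Exons of Bhlhe41, Zscan26 and Glo1 overlap those of other annotated genes. In all, such an overlap held for 5 of the 22 later-high and 6 of the 35 perinatal-high calls, Sfrp2 among the latter. Exons of Atp1b1, described below, overlap those of Nme7.

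Among tested genes of synaptic release and ion transport most means leaned to the later side, without any call. Of 37 genes of synaptic vesicles and their release 17 were tested, 16 of them with a higher later mean, with a median difference of -1.12 beside 0.042 over all genes, and of -0.58 over all 37. The separated member was Sncb (beta-synuclein), at most at 0.217 FPKM before and at 1.25, 6.83, 22.6 and 1.63 FPKM later (adjusted p 0.14 by limma). Of 21 ion transport genes 8 were tested, all with a higher later mean and a median of -1.62 (-0.46 over all 21), and Atp1b1, the beta subunit of the sodium-potassium pump, was separated at 0.226 to 2.37 FPKM before and 4.71 to 15.6 FPKM later (adjusted p 0.179 by limma). Sncb passed the level filter only through later libraries, so these counts and medians are a description. Summed levels overlapped, at 330 to 1276 FPKM before and 471 to 1628 FPKM later for synaptic genes. For ion transport genes they were 24.7 to 155 FPKM and 111 to 211 FPKM. In P7.5 replicate 1 the median log2(FPKM + 1) of tested members was 0.49 for synaptic and 0.15 for ion transport genes. In perinatal libraries it was 0.32 to 1.88 and 0.37 to 2.06. Of 28 neurotransmitter receptor genes 1 passed the filter, and of 21 bipolar cell genes also 1. The bipolar markers Trpm1 and Pcp2 were at 1.56 FPKM or less and at 0 in all 8 libraries. In the Mueller glia list, with 12 of 20 members tested, none was called. Glul, the glutamine synthetase of Mueller glia, was at 0.213 to 50.6 FPKM before and 1.67 to 474 FPKM later, with the highest value of both periods in a replicate 1, and Rlbp1, a retinaldehyde-binding protein, was at 0 to 0.648 FPKM and 0 to 15.4 FPKM. Neither difference passed the test.

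On the perinatal side, genes of DNA replication and cell division were more often separated than called. Of 64 listed cell cycle genes, all of them in the files, 23 passed the level filter. Of these, 2 were called (beside 1.13% of all genes) and 10 were separated (beside 5.46%) in the perinatal direction, and none in the other. Some members passed the filter only through the perinatal libraries in which they were high, so the counts describe the list and are not read against those shares. The median difference was 1.91 among the 23 and 0.60 over all 64, and 1.37 among the 23 without P7.5 replicate 1 and adult replicate 1. The summed level of the 64 genes was 375, 592, 357 and 394 FPKM in the perinatal libraries and 40.6, 95.3, 17.9 and 119 FPKM in the later ones. These sums did not overlap between the periods, unlike those of most lists. Uhrf1, which recruits the maintenance DNA methyltransferase to newly copied DNA, was at 155, 148, 216 and 157 FPKM before and 1.43, 3.19, 0.147 and 2.52 FPKM later. The perinatal values agreed closely with each other, and the difference of 6.05 (SE 1.13) had an adjusted p of 4.47e-05 by limma. Rrm2, a subunit of ribonucleotide reductase, was at 48, 9.73, 44.3 and 83.7 FPKM and at 2.8, 0.624, 0 and 1.32 FPKM (difference 4.28, SE 1.19, adjusted p 0.0245 by limma), a call kept in 9 of 18 alternatives.

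The other separated members of this list were named after their values were seen. They were Top2a, which untangles replicated chromosomes, at 6.83, 18.8, 2.42 and 1.31 FPKM before and at most 0.421 FPKM later, the replication clamp Pcna, the helicase subunits Mcm5 and Mcm7, the licensing factor Cdt1, the thymidine kinase Tk1, the mitotic cyclin Ccnb2 and the mitotic regulator Birc5. Pcna, Ccnb2, Cdt1 and Birc5 were listed at 0 in all 4 later libraries, with perinatal maxima of 8.27, 14, 10.1 and 2.81 FPKM. Their adjusted p ranged from 0.0971 for Ccnb2 to 0.6 for Mcm7 by limma, so none of them was called. Mki67 and Mcm3 were too low to be tested, at most at 0.819 and 3 FPKM in perinatal retina and at 0 in all later libraries. The cyclin Ccnd1, which is high in retinal progenitors, went from 22.4 to 154 FPKM among perinatal libraries and from 16.2 to 36 FPKM among later ones, so that the groups overlapped (difference 1.08, SE 1.04, adjusted p 0.822 by limma). Outside the list, Cbx5, a heterochromatin protein, was higher in perinatal retina at 649 to 2579 FPKM against 88.2 to 241 FPKM (difference 2.93, SE 0.72, adjusted p 0.00605 by limma), as did Pmf1, a kinetochore protein, at 457 to 720.2 FPKM against 4.35 to 62.2 FPKM (difference 4.38, SE 0.86, adjusted p 0.000137 by limma).

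E2F factors drive many replication genes from promoter motifs such as TTTCCCGC, TTTGGCGC and TTTGCCGC, which were searched on both strands of the same upstream windows. Of the 64 cell cycle genes 51 had an entry and 8 held such a motif (15.7%), against 3.48% of the compared genes and 1.89% of all genes with an entry, and the Crx letters stood in 2 of the 51 (3.92%). None of the 25 genes with an entry among the 35 called higher in perinatal retina held an E2F motif. Mcm5, which is separated between the periods at 10.2, 5.89, 1.77 and 13.6 FPKM before and 1.06, 0.207, 0 and 0.27 FPKM later, is shown, with capitals for a match on the other strand 149 bases before the start.
Mcm5, chr8:75109259-75109508, plus strand, free of annotated exons: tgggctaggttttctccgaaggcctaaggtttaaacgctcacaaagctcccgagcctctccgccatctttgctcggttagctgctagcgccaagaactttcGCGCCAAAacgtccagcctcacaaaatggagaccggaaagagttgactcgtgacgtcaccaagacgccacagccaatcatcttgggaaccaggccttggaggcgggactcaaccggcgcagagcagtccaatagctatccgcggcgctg

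Growth genes of young neurons held both the largest and the smallest called perinatal-high difference, those of Sox11 and Dpysl2. Of 34 neuronal growth genes 27 were tested, and 3 were called (beside 1.13% of all genes) and separated (beside 5.46%). The level filter used these same libraries, so the counts are a description. Sox11, a factor of immature neurons, had the largest called difference of all genes, at 1008, 7031, 2200 and 1199 FPKM before and 13.3, 121, 0 and 172 FPKM later (difference 6.47, SE 1.30, adjusted p 0.0139 by limma). The call was lost without P7.5 replicate 1 (difference 6.23) but held without both it and adult replicate 1 (3.84). Marcks, a substrate of protein kinase C at the growth cone membrane, was at 5918, 1833, 3449 and 3371 FPKM and then at 485, 239, 64.2 and 219.6 FPKM (difference 4.05, SE 0.67, adjusted p 3.24e-06 by limma). Dpysl2, a tubulin-binding protein of growing axons, had the highest mean over both periods among perinatal-high calls, at 7465 to 19872 FPKM before and 1438 to 5330 FPKM later (difference 2.25, SE 0.51, adjusted p 0.00179 by limma). The median of the 27 was 0.82 but -0.34 without P7.5 replicate 1 and adult replicate 1, so the list as a whole had no settled direction. Gap43, the growth-associated protein of axons, was at 5.64 and 24 FPKM at E17.5, 0.747 and 0.642 FPKM at P0.5 and at most 0.258 FPKM later, separated but too low to be tested. Stmn2 was high at E17.5 (13.7 and 26.9 FPKM) and in the later replicates 2 (10.4 and 12.8 FPKM), and low or absent elsewhere. Of 37 axon guidance genes 3 were tested, and the receptor Robo1 was separated, at 3.73 to 5.94 FPKM before and 0.0693 to 1.77 FPKM later (adjusted p 0.537 by limma).

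Genes used as markers of early-born neurons differed widely in level and in result. Of 24 ganglion cell genes 8 were tested, with Pou4f1 and Ebf1 called higher in perinatal retina, beside 1.13% of all genes. The median difference was 1.32 among the 8, 0.37 over all 24 and, among the 8, 0.75 without P7.5 replicate 1 and adult replicate 1. Each of these calls held in 9 of 18 alternatives. That of Pou4f1 was lost without E17.5 replicate 2, P0.5 replicate 1 or P7.5 replicate 1, and that of Ebf1 without E17.5 replicate 1, P0.5 replicate 1 or adult replicate 1. Pou4f1, a POU factor of ganglion cells, was at 2036, 7381, 4036 and 1226 FPKM before and 106, 1091, 315 and 1274 FPKM later, with P0.5 replicate 2 below adult replicate 2 (difference 2.66, SE 0.64, adjusted p 0.00447 by limma). Ebf1 was at 439, 367, 170.2 and 64.9 FPKM and at 43.4, 17.1, 0 and 21.1 FPKM (difference 4.16, adjusted p 0.00447 by limma). The related Pou4f2, a defining ganglion cell factor, was at 0.285 FPKM or less in all 8 libraries, and Rbpms was at 0.138 to 3.98 FPKM before and at 0 later. Sncg was at 40.7 and 35 FPKM at E17.5, at 5.04 and 3.82 FPKM at P0.5, and at 6.14 and 6.64 FPKM in the later replicates 2. It differed between E17.5 and P0.5 more than between the periods (adjusted p 0.336 by limma). Tfap2b, a factor of amacrine and horizontal cells that counts in both lists, was called at 178 to 787 FPKM against 4.27 to 92.3 FPKM (difference 3.47, SE 0.89, adjusted p 0.0106 by limma), and the related Tfap2a was separated at low level. Of the amacrine markers, Gad1 was at 0.656 FPKM or less everywhere and Calb2 at 0.746 to 6.95 FPKM before and 0 to 7.97 FPKM later.

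Progenitor genes differed among themselves. Of 36 listed 21 were tested. In the perinatal direction 1 was called (beside 1.13% of all genes) and 2 were separated (9.52% beside 5.46%). Fgf15 passed the level filter only through perinatal libraries, so the counts are a description. Sfrp2, a secreted Wnt antagonist of retinal progenitors, was at 2575, 257, 554 and 794 FPKM before and 86.8, 13.5, 3.61 and 28.2 FPKM later (difference 5.18, SE 0.87, adjusted p 3.24e-06 by limma). Fgf15, which progenitors secrete, was at 1.72, 45.2, 2.75 and 1.28 FPKM before and at 0 in all later libraries (adjusted p 0.1 by limma). Hes5 was at 0 to 6.55 FPKM before and 0 to 1.59 FPKM later, and Sox2 at 0.82 FPKM or less, and neither separated the periods. Sox9, listed with Mueller glia and also present in progenitors, was separated at 557 to 1158 FPKM before and 144 to 269 FPKM later (difference 1.79, SE 0.74, adjusted p 0.224 by limma). The factors Meis1 (difference 4.00), Tox (3.77) and Tcf7l2 (3.20) were called and separated, and were named after their values were seen. Tbx3, a T-box factor, was at 53 to 170.4 FPKM before and 0.887 to 14.1 FPKM later (difference 4.32, SE 1.11, adjusted p 0.0104 by limma).

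The remaining large perinatal-high genes belong to none of the gene lists, and whether they share a function was not tested. Ptp4a2, a phosphatase, was at 1418, 370.2, 1526 and 446 FPKM before and 1.08, 76.4, 9.44 and 106 FPKM later (difference 5.23, SE 0.87, adjusted p 3.24e-06 by limma). Cdv3 was at 753 to 2735 FPKM and 11.2 to 174 FPKM (difference 4.59, SE 0.79, adjusted p 4.66e-06 by limma). The selenophosphate synthetase homolog Sephs1 (difference 4.90), the sterol hydroxylase Cyp39a1 (4.86) and Itpripl1 (4.53) were listed at 0 in adult replicate 1, and each reached 21.6 to 74.1 FPKM in adult replicate 2. In all, 12 of the 35 called and 114 of the 169 separated perinatal-high genes were at 0 in this library, as were 53.0% of all genes compared, and 182 genes were separated in this direction without it. Of 54 genes for RNA binding and splicing 41 were tested, with a median difference of 0.75. Of the 41, 1 was called higher in perinatal retina, beside 1.13% of all genes. The anti-apoptotic Bcl2l1 (difference 2.31, SE 0.58) and the calcium sensor Ncs1 (2.34, SE 0.62), which with Dpysl2 had the highest mean over both periods among the perinatal-high calls, kept their call in 8 of 18 alternatives each.

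Genes for energy supply and protein synthesis gave no call in either direction. No gene of oxidative phosphorylation was called or separated among 67 tested of 77, although 55 had a higher perinatal mean, and the median of 0.68 turned to -0.61 without P7.5 replicate 1 and adult replicate 1. Among 15 tested of 22 glycolysis genes none was called, and their median was -0.24, with the opposite sign after median-ratio scaling (0.095) and a value of -1.31 without P7.5 replicate 1 and adult replicate 1. Translation factors had a median of 0.76, -0.35 without these libraries, with no call among 31 tested of 41. Of the 31, 2 were separated in the perinatal direction (6.45%), near the 5.46% of all genes. Eif3k, a subunit of initiation factor complexes, was separated at 2.79 to 10.6 FPKM before and 0 to 2.3 FPKM later (adjusted p 0.523 by limma), and nucleolin (Ncl) at 37.7 to 94.3 FPKM and 7.23 to 36.4 FPKM (adjusted p 0.701 by limma). Chromatin and HMG genes, 29 tested of 35, had a median of 0.42, and -0.36 without the 2 libraries. Cbx5 was the 1 member called, beside 1.13% of all genes.

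**Figure D4:**
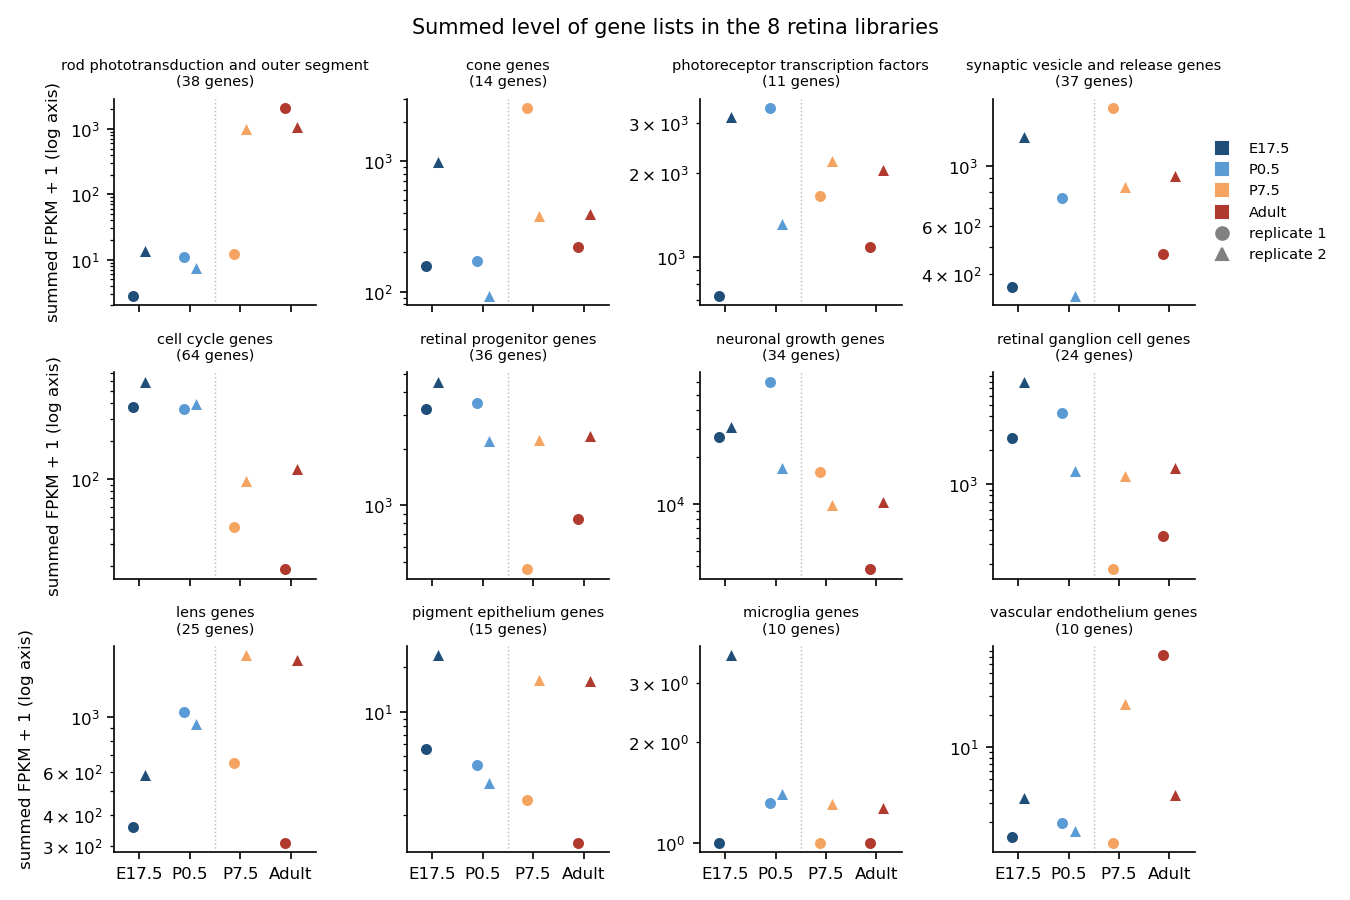
Summed FPKM + 1 (log axis) of 12 gene lists in each of the 8 libraries by stage, with the number of genes in each list. The sums of cell cycle genes and of neuronal growth genes lie higher in every perinatal library than in any later one. Rod genes are high in 3 of the 4 later libraries, and lens genes are present in all 8. Sums rest mostly on abundant members: in E17.5 replicate 1, Dpysl2 was at 19410 FPKM of the 26622 FPKM of neuronal growth genes.

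The called genes were followed over the 4 stages. The median over the 22 later-high calls, in log2(FPKM + 1), stood at 0.64 in late embryos, 1.31 in newborns, 3.82 in the P7.5 pups and 7.06 in adults. Over the 35 perinatal-high calls the same stages had 8.59, 8.70, 4.94 and 3.76. Since the genes were chosen for a difference across the boundary between P0.5 and P7.5, these medians describe them and were not tested, and the P7.5 mean holds replicate 1, in which rod genes were near their perinatal level. Between E17.5 and P0.5 the called genes moved both ways, with 19 of 35 and 12 of 22 higher at P0.5. Of all 3095 genes compared, 663 were higher and 2424 lower at P0.5, with a median change of -0.61. The median log2(FPKM + 1) of these genes was 1.12 and 2.73 in E17.5 replicates 1 and 2. It was 1.21 and 1.08 in the P0.5 replicates, so E17.5 replicate 2 alone stood high. The contrast of E17.5 with P0.5 was not tested.

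A further adult retina library, from the run-off experiment and prepared without run-off, had no part in the comparison. It held 4686284 reads on genes as counts, of which a gene needs 3 to pass a floor of 0.640 CPM (reads scaled to 1e+06 reads on genes). After division by transcript length, the level of all 34 perinatal-high calls with a known length was nearer to the later mean than to the perinatal one, as was that of 19 of 21 later-high calls (90.5%). Among the separated genes the share was 67.9% on the perinatal and 75% on the later side, and among all genes compared it was 57.5%. Bhlhe41 had 47614 reads, Gnat1 17334 and Pde6g 5680, while Uhrf1 and Rrm2 had 2 each, and Top2a, Fgf15, Gap43 and Pmf1 had none. Marcks (9255 reads) and Dpysl2 (71114 reads) were still well represented. This is 1 library without replicate, and its counts came from another counting tool than the FPKM values. Gnb1 took 30.5% of its reads and was listed at 0 in 5 of the 8 compared libraries, so the 2 scales may differ. They were not adjusted to each other. A lower scale would by itself bring perinatal-high genes nearer to their later mean.

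The same comparison in tissue without any tagged ribosome gave differences of the same sign for many of these genes. The superior colliculus (SC), the midbrain target of ganglion cell axons, was put through the same HA pull-down in mice without Cre, in 2 libraries at each of the 4 stages. Of the 35 genes called higher in perinatal retina, 29 (82.9%) also had a higher perinatal mean in Cre-negative SC, with a median difference of 2.04 beside 3.94 in retina, whereas 54.6% of all genes did, with a median of 0.19. Full separation in the same direction held for 4 of the 35 (Fkbp8 and Mau2 among them), 11.4% beside 2.91% of all genes. Of the 22 genes higher in later retina, 19 (86.4%) had a higher later mean in Cre-negative SC, beside 38.2% of all genes, with a median difference of -0.97 beside -3.84 in retina, and 3 were separated (Alkbh5, Bhlhe41 and Zscan26), 13.6% beside 0.938%. Whether the difference was larger in retina than in SC was not tested, and neither was the part of nonspecific pull-down in the retina values.

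**Figure D5:**
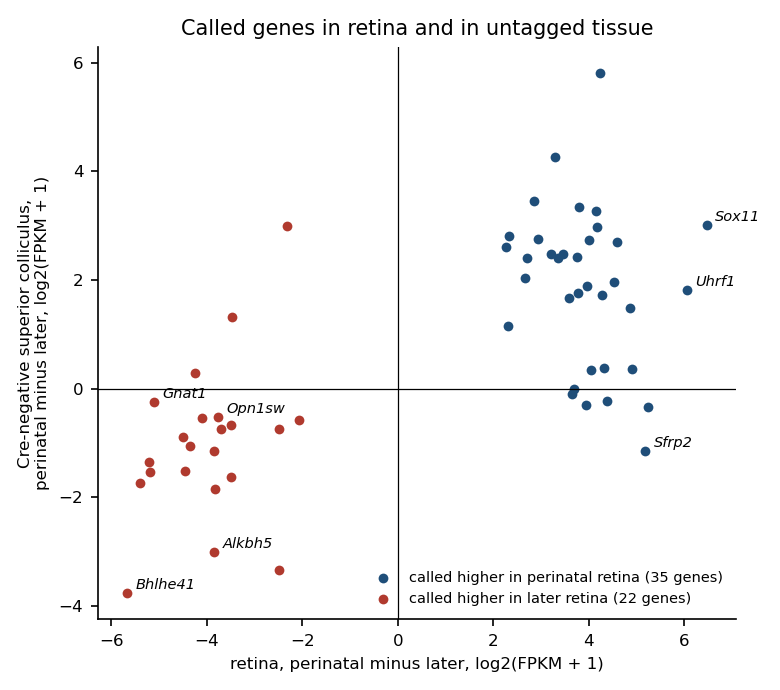
Difference of mean log2(FPKM + 1), perinatal minus later, in retina (x axis) and in Cre-negative superior colliculus (y axis) for the 57 called genes. Of the 35 perinatal-high genes 29 lie above 0 on the y axis and of the 22 later-high genes 19 lie below it, with Bhlhe41, Zscan26 and Alkbh5 the lowest and Sfrp2 on the opposite side.

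The levels in Cre-negative SC differed widely among these genes. FPKM is a share within a library, so a level there is not the amount of background in a retina library. SC is also another tissue, with mRNAs of its own cells. Bhlhe41 was at 8.42 to 75.2 FPKM in the perinatal and 106 to 2494 FPKM in the later Cre-negative SC libraries, a span that holds all 4 later retina values. Sox11 was at 95.2 to 3497 FPKM and 0 to 762 FPKM there, Dpysl2 at 2430 to 15490 FPKM and 183 to 2598 FPKM, and Sfxn5 at 444 to 2039 FPKM and 1568 to 4961 FPKM. These genes are thus high in this pull-down without a tag. Pou4f1, Ebf1 and Tfap2b reached 2060, 168 and 201 FPKM in perinatal Cre-negative SC, each above its lowest perinatal retina value. Ncs1 reached 3411 FPKM in those libraries, and Ptp4a2 1999 FPKM in the later ones, above all its retina values. The highest Cre-negative SC value reached the lowest perinatal retina value for 23 of the 35 perinatal-high calls, beside 2844 of 3092 genes. Uhrf1 reached 25.9 FPKM at most there, against 148 FPKM or more in every perinatal retina library, and Pmf1 reached 46 FPKM at most, against 457 FPKM or more. Rod genes were not absent there. Gnat1 reached 8.33 FPKM in the perinatal and 14.1 FPKM in the later Cre-negative SC libraries, Pde6g 0.0977 and 45.5 FPKM and Guca1a 0.102 and 78.8 FPKM, the last above the 54 FPKM of P7.5 replicate 2 in retina. Pdc and Prph2, at 0 in its perinatal libraries, reached 6.85 and 3.65 FPKM in its later ones. The source of these fragments was not tested. Sfrp2 went the other way there, at 11.1 to 189.9 FPKM in perinatal and 13.8 to 693 FPKM in later libraries.

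Markers of eye cells that Pax6-alpha-Cre was not meant to tag were highest for the lens, by the sums of these lists. Lens genes were detected in all 8 libraries, with summed levels of 358 to 1045 FPKM before and 309 to 1766 FPKM later over 25 genes, of which 20 were tested and none was called or separated. Cryaa, the alpha crystallin of lens fibers, was at 112, 167, 232 and 131 FPKM and at 2.4, 596, 84.8 and 548 FPKM (difference 0.65, SE 0.94, adjusted p 0.935 by limma). In Cre-negative SC, a midbrain tissue, Cryaa reached 10.1 FPKM in perinatal and 129 FPKM in later libraries. Its level is therefore not a measure of lens cells alone, and its source was not tested. The pigment epithelium list summed to 2.29 to 23.1 FPKM before and 0.287 to 15.5 FPKM later with Rpe65 at most at 0.918 FPKM, cornea and surface epithelium to at most 0.955 FPKM with Krt12 at most at 0.0542 FPKM, connective tissue to at most 12.5 FPKM with Col1a1 at most at 6.92 FPKM, and muscle to at most 6.84 FPKM. Microglia genes summed to at most 2.63 FPKM with C1qa at most at 0.298 FPKM, and astrocyte genes to at most 0.774 FPKM. Red blood cell genes summed to at most 17.7 FPKM, with Hbb-bs at most at 4.6 FPKM and Hba-a1 at most at 5.49 FPKM. Vascular endothelium genes summed to at most 2.32 FPKM before and to 0.271, 24.2, 71.2 and 2.6 FPKM later, mostly from Esam, an adhesion molecule also found on platelets, at most at 0.0542 FPKM before and at 0, 22.5, 71.2 and 1.21 FPKM later (difference -2.95, SE 0.95, adjusted p 0.0813 by limma). Cdh5, a defining endothelial cadherin, was at most at 0.168 FPKM in both periods, and the part of these cells in the later-high calls was not tested. None of these lists of cells that Cre was not meant to tag had sums that separated the periods.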

How the data were processed

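Per the labels and methods, the authors isolated HA-tagged ribosomes from pooled eyes, amplified the bound mRNA as cDNA by PCR, mapped reads to mm10 with TopHat2 2.0.12 and deposited FPKM from Cufflinks 2.2.1, 1 value per gene and library. For the further adult library the authors deposited read counts from HTSeq 0.6.1p1. Values at exactly 0 were kept.

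Groups came from the sample labels. Genes at 1 FPKM or more in 3 or more of the 8 libraries were compared on log2(FPKM + 1), so fold changes of low genes are understated, with limma 3.58.1 (R 4.3.3, trend and robust moderation, two-sided, Benjamini-Hochberg over 3095 genes, threshold 0.05), and by full separation. The labels do not say whether replicates were separate animals, so the p-values rest only on spread between libraries. SE and p by limma use a spread moderated with that of other genes, not the spread of a gene's own values alone. Ttyh2 had SDs of 1.39 and 1.75 in log2 within the periods, an SE of 0.61 and an exact permutation p of 0.143. Uhrf1 had SDs of 0.247 and 0.829 and an SE of 1.13. Depth is an estimate. The 2 stages of a period were pooled as replicates. Gene lists, members and the comparison itself were chosen with earlier results of these data known. Some genes are not reported here. Genes described are the 10 largest called and separated per direction, up to 4 called or separated per list, a list of known markers, and the 3 most abundant called per direction. Coordinates and lengths are of GENCODE M21 and promoters of RefSeq (GRCm38.p6). The fit was tested on simulated data. Alternatives were pseudocount 0.1, no filter, a filter of 5 FPKM, median-ratio scaling, quantile normalization, a fit of 4 stages, a replicate block, no trend or robust moderation and each library left out. After seeing the data, leaving out P7.5 and adult replicate 1 together, and taking a 0 beside a stage mate at 100 FPKM or more as missing, were added.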

Additional observations from a re-analysis of the deposited data

Results flagged for a closer look

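The range of 4 libraries was examined for a sample far from the others (Dixon's ratio of the gap to the whole range) in 62 groups, and 4 passed, where chance would flag about 1 in 20. The number of genes at 1 FPKM or more in perinatal retina had a ratio of 0.943, with 4596 genes in E17.5 replicate 2 and 1668 to 1835 in the other 3 libraries. In later retina, the ratio was 0.860 for the summed level of rod phototransduction and outer segment genes and 0.844 for that of glycolysis genes, on a log2 scale. In both, P7.5 replicate 1 was the low library, at 11.0 FPKM for rod genes beside 1009 to 2077 FPKM, and with glycolysis genes far below the 599 to 1255 FPKM of the other 3. For RNA-binding and splicing genes the ratio was 0.921, with P7.5 replicate 1 as the high library, at 5826 FPKM beside 952 to 1099 FPKM. The reason was not tested.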

How the results depend on the processing

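Numbers of calls are given as higher in perinatal retina and then higher in later retina, 35 and 22 as reported. They were 16 and 2 with a filter of 5 FPKM, 0 and 0 with no filter (12239 genes), 13 and 1 with no trend or robust moderation, 23 and 13 with a pseudocount of 0.1, 32 and 14 in the fit of 4 stages, 30 and 8 after median-ratio scaling, 61 and 22 after quantile normalization, 41 and 25 with zeros beside a high stage mate as missing, and 40 and 152 without P7.5 and adult replicate 1. Leaving out 1 library gave 13 to 45 and 7 to 114. Separated genes, 169 and 62 as reported, were 92 and 51 with a filter of 5 FPKM, 557 and 86 with no filter, 265 and 79 after median-ratio scaling, 282 and 148 after quantile normalization, and 261 and 715 without P7.5 and adult replicate 1. They were 179 to 241 and 65 to 324 when 1 library was left out, where separation is easier to meet by construction. The later-high number was 324 without P7.5 replicate 1, 138 without E17.5 replicate 2 and 65 to 84 without any other single library. The cause of these shifts was not tested.

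With a replicate block the calls were 80 and 71, with all 35 and 22 reported genes among them. The numbers do not mark shared animals or batches in the labels, and the deviations of same-numbered libraries correlated from -0.544 to 0.556 between stages, so the fit without the block is reported.

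The median difference of all genes was 0.20 after median-ratio scaling, 0.17 after quantile normalization, 0.41 with a pseudocount of 0.1 and -0.69 without P7.5 and adult replicate 1, beside 0.042. Among 59 tested genes described, 18 values had the opposite sign, none of them for a called gene. With a pseudocount of 0.1, Calb2 was at 0.084 and Nefl at 0.54. After quantile normalization Calb2 was at 0.21, and after median-ratio scaling Nefl was at 0.029. Without P7.5 and adult replicate 1, Stmn2 was at -0.97, Rpl22 at -0.028, Cryaa at -1.88, Col1a1 at -0.81 and Hba-a1 at -0.46. With 1 library left out, the ranges were -1.02 to 0.035 for Calb2, -0.70 to 0.30 for Nefl, -0.065 to 0.76 for Rpl22, -0.97 to 1.52 for Cryaa, -0.48 to 0.49 for Col1a1 and -0.31 to 0.62 for Hba-a1. Of the 36 called genes described, each lost its call under at least 1 alternative. With 2 libraries per stage, levels near the floor of 3 fragments are uncertain.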
